A study of Mus musculus with 4 samples.

Results

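Procr and 6 other genes used to mark or study stem cells of the mammary gland were read in RNA from 3D-cultured mouse mammary cells. The members were Procr, Lgr5, Lgr6, Tspan8, Bcl11b, Sox9 and Sox10, taken by gene symbol, and they make up 7 of the 54446 genes listed in the deposited table. All 7 had a value above 0 in every library, as had 17787 genes in all. The cells came from mammary glands of wild type C57BL/6 mice, were sorted by flow cytometry (CD29hi CD24+ for those labelled basal cell, CD29lo CD24+ for those labelled luminal cell), and were grown in Matrigel, a basement membrane gel, in medium with EGF. Each label had 1 library from cells given DMSO, the solvent control, and 1 from cells given 100 μM baicalin, a flavonoid from Scutellaria roots. All 4 libraries thus shared the strain, the gel and the medium, and no allele was altered. The mice were female. The labels give neither their age nor how many were pooled, and the study's methods give a range of ages for primary cells that may not apply to these cultures. Cells with CD31, CD45 or TER119, the markers of endothelial, blood and red cells, were stained in order to leave them out of the sorts.

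The mammary epithelium has an outer basal layer, which holds contractile myoepithelial cells and cells able to regrow a gland on transplantation, and an inner luminal layer. Procr encodes the protein C receptor, a surface protein that binds protein C and that also marks a subset of basal cells with stem cell activity and the endothelium. Lgr5 and Lgr6 encode receptors for R-spondins, secreted proteins that raise Wnt signaling, Tspan8 encodes a tetraspanin of the cell membrane, and Bcl11b, Sox9 and Sox10 encode transcription factors that have been tied to quiescent, progenitor or stem-like mammary cells. The study asked how baicalin acts on mammary stem cells, for which Procr served as its marker.

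Levels are given as FPKM, the fragments on a gene divided by its exon length in kb and by the library's depth. Depths ran from 19356104 to 20648790 fragments. Each condition had 1 library, so single comparisons carry no test. A change was called when log2((first FPKM + 1)/(second FPKM + 1)) passed 1 in either direction, and the words rose and fell are kept for such changes. The 95% intervals given here are exact and cover counting error only, and how far 2 cultures under the same treatment differ was not measured. The labels did not match the cell type markers. All 10 basal markers, such as Krt5 and Acta2, were higher in the luminal-labelled than in the basal-labelled library with DMSO, and again with baicalin. All 10 luminal markers, such as Krt8 and Krt18, were lower in the luminal-labelled library with DMSO, and 9 of them with baicalin. Of the hormone receptor genes of luminal cells, Pgr and Esr1 ran with the labels under DMSO. Prlr, the prolactin receptor gene among the 10 luminal markers, ran against the labels under both treatments. Pgr had 1.08 FPKM in the basal-labelled and 4.81 FPKM in the luminal-labelled library, and Esr1 had 0.992 and 1.44 FPKM. With baicalin, Pgr had 0.912 and 2.09 FPKM and Esr1 had 0.982 and 0.723 FPKM in the same order. Itgb1, the gene of the CD29 used for the sorts, also ran with the labels. It had 348 and 207 FPKM with DMSO, and 243 and 232 FPKM with baicalin, the basal label first. The names basal and luminal are therefore used only as labels of libraries.

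The 7 genes differed in how far their levels spread over the libraries. Sox9 stayed between 39.0 and 43.2 FPKM, a spread of 1.11-fold over the 4 libraries, and Lgr6 between 8.96 and 14.5 FPKM, a spread of 1.62-fold. Sox10 spread 2.57-fold, Tspan8 4.40-fold and Procr 5.64-fold. Bcl11b and Lgr5 ran from 0.0243 to 6.08 FPKM and from 0.0240 to 17.7 FPKM, and for both the lowest value was in the basal-labelled library with baicalin and the highest in the luminal-labelled library with DMSO.

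**Figure D1:**
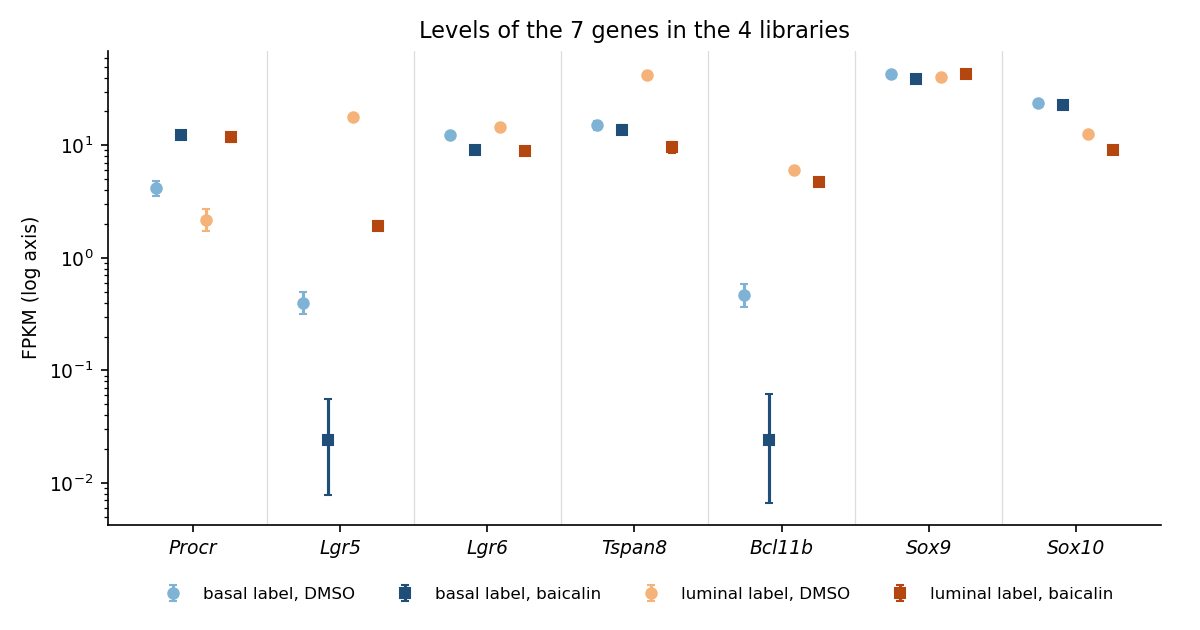
FPKM of the 7 genes on a log axis, with 1 point for each library and bars for the exact 95% Poisson interval of its fragments. Procr is the only one of the 7 whose baicalin libraries both lie above both DMSO libraries, and Lgr5 and Bcl11b lie lowest in the basal-labelled library with baicalin.

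The order of the levels changed with treatment and label. With DMSO and the basal label, the order from the top was Sox9, Sox10, Tspan8, Lgr6, Procr, Bcl11b and Lgr5, and only the last pair, Bcl11b and Lgr5, had overlapping counting intervals. With baicalin and the basal label, Procr moved past Lgr6 to the fourth place, where its interval met that of Tspan8, and Bcl11b and Lgr5 again could not be ordered. With DMSO and the luminal label, Tspan8 and Sox9 shared the top with overlapping intervals, and Lgr5, Lgr6, Sox10, Bcl11b and Procr followed. Procr was thus the lowest of the 7 in that library. With baicalin and the luminal label, Procr stood second after Sox9, while Tspan8, Sox10 and Lgr6 followed at 9.59, 9.17 and 8.96 FPKM with overlapping intervals, and Lgr5 was last.

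Procr (ENSMUSG00000027611) lies on chromosome 2 of GRCm38, at chr2:155751117-155755471 on the plus strand, with 2031 bases of exon. Its level was 4.14 FPKM with DMSO and 12.3 FPKM with baicalin in the basal-labelled libraries, and 2.19 FPKM with DMSO and 11.8 FPKM with baicalin in the luminal-labelled libraries. The fragments behind these values numbered 167, 508, 86 and 496. Both baicalin libraries were higher than both DMSO libraries, and the intervals of the 2 treatments did not overlap. The rise was 2.98-fold (95% interval 2.50 to 3.57) in the basal-labelled pair, a log2 change of 1.37. In the luminal-labelled pair it was 5.41-fold (95% interval 4.29 to 6.88), a log2 change of 2.01 with 1 FPKM added to each value. Only 0.332% of the 17787 genes had a larger log2 change there, against 0.821% for the rise in the basal-labelled pair. With DMSO, Procr was 1.89-fold higher under the basal than under the luminal label (1.45 to 2.49). With baicalin the ratio of luminal to basal label was 0.959 (0.846 to 1.09), an interval that holds 1.

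Procr is also a gene of endothelial cells, so 12 endothelial markers were read in the same libraries. Their summed level was 1.92 and 2.74 FPKM in the basal-labelled libraries with DMSO and baicalin, and 4.68 and 5.60 FPKM in the luminal-labelled ones. Of the 12, 10 were higher with baicalin in each pair, beside 9057 (basal label) and 8115 (luminal label) of all 17787 genes. The amounts were small in FPKM but not always as folds. Cdh5 went from 0.529 to 1.34 FPKM under the luminal label, 2.53-fold (1.77 to 3.68). The highest single value was 1.61 FPKM for Erg. Pecam1, an adhesion molecule of endothelium, had at most 1.28 FPKM. The sum over all 12 markers was below the level of Procr in 3 libraries and above it in the luminal-labelled library with DMSO, where Procr had 2.19 FPKM. CD31, the protein of Pecam1, was among the markers stained to leave cells out of the sorts. The part of endothelial RNA in the Procr values was not tested. In bulk RNA such as this, more Procr in each cell and more cells with Procr cannot be told apart.

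The promoter of Procr is shown because the study cloned it for reporter assays, and that of Bcl11b because it was the only other member with a match to the letters searched. RefSeq held promoter windows for 4 of the 7 genes, Procr, Lgr6, Tspan8 and Bcl11b, each with 250 bases before the start of transcription and 50 after it. That of Procr is far shorter than the stretch upstream of the first ATG that the study cloned. Both strands were searched for CTTTGAA and CTTTGAT (TCF/LEF factors, which act in Wnt signaling), ACAATGG and ACAAAGG (SOX factors) and TGACNNNGC (antioxidant response element). The windows run 5′ to 3′ along the gene's strand in GRCm38.p6, chr2:155750967-155751266 on the plus strand for Procr and chr12:108003365-108003664 on the minus strand for Bcl11b, with matched letters in capitals.
Procr: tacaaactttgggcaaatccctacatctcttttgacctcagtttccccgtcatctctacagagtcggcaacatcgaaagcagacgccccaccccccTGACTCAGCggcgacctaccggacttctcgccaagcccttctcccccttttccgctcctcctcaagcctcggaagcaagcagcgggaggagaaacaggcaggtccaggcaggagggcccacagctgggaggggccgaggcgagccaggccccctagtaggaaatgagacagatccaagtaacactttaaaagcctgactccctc
Bcl11b: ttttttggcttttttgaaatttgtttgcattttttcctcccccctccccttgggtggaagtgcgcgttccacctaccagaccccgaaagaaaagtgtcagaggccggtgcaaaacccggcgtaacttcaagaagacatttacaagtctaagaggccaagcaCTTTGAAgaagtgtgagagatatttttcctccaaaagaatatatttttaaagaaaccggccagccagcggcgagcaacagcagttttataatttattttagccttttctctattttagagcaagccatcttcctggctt

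The Procr window held 1 match, TGACTCAGC from base 97, to the letters of the antioxidant response element, and its first 7 letters are also those of an AP-1 site. Letters of this kind stood in 12.4% of the 32851 promoter windows of the same length. The Bcl11b window held 1 match to CTTTGAA from base 162, letters found in 5.14% of all windows. The windows of Lgr6 and Tspan8 had no match to the 5 strings, and none of the 4 windows held the SOX letters.

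Lgr5 (ENSMUSG00000020140), at chr10:115450311-115587780 on the minus strand with 10264 bases of exon, had 0.398 FPKM with DMSO and 0.0240 FPKM with baicalin in the basal-labelled libraries, from 81 and 5 fragments. In the luminal-labelled libraries it had 17.7 FPKM with DMSO and 1.93 FPKM with baicalin, from 3514 and 410 fragments. The luminal-labelled library with DMSO stood above the 3 others, and within each label the baicalin library was the lower. The level fell 9.14-fold with baicalin under the luminal label (95% interval 8.25 to 10.2), with a log2 change of -2.67, and only 15 of the 17787 genes had a lower one. Under the basal label the plain ratio was 16.6-fold lower with baicalin (6.81 to 52.3), but both values were under 0.4 FPKM and the log2 change with 1 FPKM added was -0.45, short of the threshold. A fold of this kind rests on 5 fragments in 1 library.

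Lgr6 (ENSMUSG00000042793), at chr1:134983301-135105276 on the minus strand, had 12.4 and 9.14 FPKM with DMSO and baicalin under the basal label, and 14.5 and 8.96 FPKM under the luminal label. The baicalin libraries were lower than the DMSO libraries in both pairs, 1.35-fold (1.26 to 1.46) and 1.62-fold (1.51 to 1.74), and neither change reached 1 on the log2 scale. Lgr4, the third receptor of the family and not one of the 7 genes, had 21.3, 11.8, 40.3 and 28.7 FPKM in the order basal label with DMSO and baicalin, then luminal label with DMSO and baicalin. Lgr5 made up 24.4% of the summed FPKM of the 3 receptors in the luminal-labelled library with DMSO and 4.89% in the one with baicalin. Under the basal label its share was 1.17% with DMSO and 0.115% with baicalin. Lgr4 held the largest share in every library, between 55.6% and 72.5%.

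**Figure D2:**
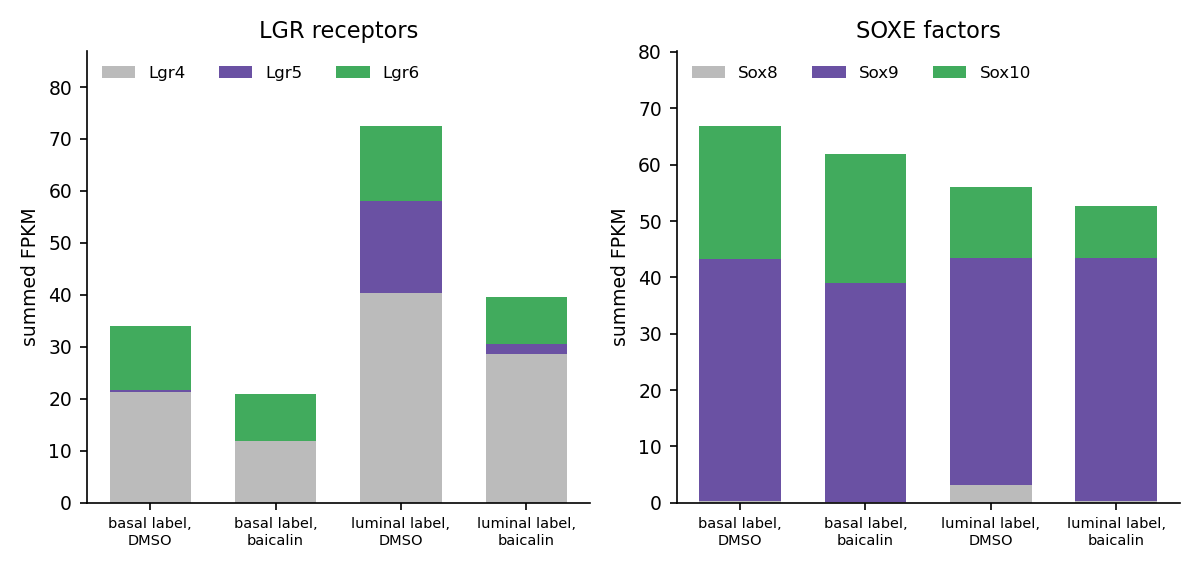
Summed FPKM of the 3 LGR receptors (left) and of the 3 SOXE transcription factors (right) in the 4 libraries, with 1 colour for each gene and no error bars. Lgr5 shrinks from 24.4% to 4.89% of its bar under the luminal label, while Sox9 fills 63.0% to 82.0% of every bar on the right.

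Few fragments of the ligands of these receptors were found. Rspo1, the R-spondin known to support mammary stem cells in culture, had 0.0780 to 0.200 FPKM, from 3 to 8 fragments in each library. Rspo3 had at most 7 fragments, and Rspo2 and Rspo4 were listed at 0 in all 4 libraries. Axin2, a target and inhibitor of Wnt signaling, had 0.366 and 0.197 FPKM under the basal label and 1.70 and 3.46 FPKM under the luminal label, with DMSO first. Axin2 was thus 2.04-fold higher with baicalin under the luminal label (1.70 to 2.44), where Lgr5 was lower, with a log2 change of 0.72.

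Tspan8 (ENSMUSG00000034127), at chr10:115816832-115849893 on the plus strand, had 15.0 and 13.8 FPKM with DMSO and baicalin under the basal label and 42.2 and 9.59 FPKM under the luminal label. The luminal-labelled library with DMSO was high and the 3 others lay between 9.59 and 15.0 FPKM. Tspan8 fell 4.40-fold with baicalin under the luminal label (3.90 to 4.97), a log2 change of -2.03, and 44 of the 17787 genes had a lower one. Under the basal label the ratio of baicalin to DMSO was 0.921 (0.811 to 1.05), an interval that holds 1. Tspan8 is the next protein-coding gene to Lgr5 on the chromosome, 229 kb away, and both were highest in the luminal-labelled library with DMSO. Zfc3h1, the neighbour of Lgr5 on its other side, had 20.6 FPKM with DMSO and 21.3 with baicalin under the luminal label. Ptprr, beyond Tspan8, had at most 3 fragments in any library.

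Bcl11b (ENSMUSG00000048251), at chr12:107910403-108003602 on the minus strand, had 0.466 and 0.0243 FPKM with DMSO and baicalin under the basal label, from 75 and 4 fragments. Under the luminal label it had 6.08 and 4.76 FPKM, from 954 and 797 fragments. Both luminal-labelled libraries were thus above both basal-labelled ones. The plain ratio was 19.2-fold lower with baicalin under the basal label (7.18 to 72.1), on 4 fragments, and 1.28-fold lower under the luminal label (1.16 to 1.40). The log2 changes with 1 FPKM added were -0.52 and -0.30 and did not pass the threshold. Bcl11b is also a gene of T cells, which carry the CD45 that the sorts left out. Of 10 T cell markers, Cd2, Cd3d, Cd3g and Trbc1 were listed at 0 in all 4 libraries, and the sum of all 10 ran from 0.634 to 1.91 FPKM, nearly all of it from Lck.

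The basal markers were read beside Lgr5 and Bcl11b. Between labels, all 10 were higher where these genes were higher. With baicalin under the basal label, 9 of the 10 basal markers were lower, beside 8728 of all 17787 genes. Krt5, a basal keratin, went from 128 to 3.01 FPKM and Trp63, the p63 transcription factor of basal cells, from 6.01 to 0.305 FPKM. Under the luminal label, 5 of the 10 were higher with baicalin and 5 lower, with Krt5 at 2015 and 2415 FPKM and Oxtr, the oxytocin receptor, at 19.4 and 3.61 FPKM. Of the luminal markers, 7 of 10 were lower with baicalin under each label, beside 8728 (basal label) and 9670 (luminal label) of all 17787 genes. The sum of 10 fibroblast markers was 7.88 and 3.39 FPKM under the basal label, with DMSO first. It was 16.8 and 13.7 FPKM under the luminal label in the same order. By sign, 2 of the 10 were higher with baicalin and 8 lower under the basal label. Under the luminal label 8 were higher and 2 lower, Pdgfra and Fbln1, which had the highest values there with DMSO. Between the labels with DMSO, 3 were higher under the luminal label and 7 lower, although the sum was larger there. The sum of 10 markers of other immune cells, again with DMSO first, was 16.9 and 54.2 FPKM under the basal label. Under the luminal label this sum was 5.47 and 16.6 FPKM. Most of it was Lyz2 and Cd68. Under the basal label Cd68 went from 7.49 to 51.5 FPKM and Lyz2 from 8.84 to 2.17 FPKM. There 2 of the 10 were higher with baicalin and 6 lower, beside 9057 and 8728 of all 17787 genes. Under the luminal label 6 were higher and 1 lower, beside 8115 and 9670 of all genes. Ptprc, the gene of the CD45 used to leave such cells out of the sorts, had at most 0.0138 FPKM. The part of these markers' cells in the member values was not tested.

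Sox9 (ENSMUSG00000000567), at chr11:112782224-112787760 on the plus strand, had 43.0 and 39.0 FPKM with DMSO and baicalin under the basal label and 40.2 and 43.2 FPKM under the luminal label. With 3220 to 3685 fragments in each library, ratios near 1 could be told from 1 by counting alone. The ratio of baicalin to DMSO was 0.906 (0.864 to 0.951) under the basal label and 1.07 (1.02 to 1.13) under the luminal label. With 1 culture each, neither change has a replicate check.

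Sox10 (ENSMUSG00000033006), at chr15:79154908-79165240 on the minus strand, had 23.6 and 22.8 FPKM with DMSO and baicalin under the basal label and 12.6 and 9.17 FPKM under the luminal label. Both basal-labelled libraries were above both luminal-labelled ones, which is the opposite of Lgr5 and Bcl11b. Sox10 and Sox9 stood at a ratio of 0.549 and 0.586 under the basal label, and of 0.313 and 0.213 under the luminal label, with DMSO first. Sox8, the third factor of the SOXE family, was low in 3 libraries and had 3.16 FPKM in the luminal-labelled library with DMSO. There it fell to 0.326 FPKM with baicalin, a 9.70-fold difference (6.17 to 16.0). Sox10 is also a gene of Schwann cells and melanocytes. Their markers Cdh19, Foxd3, Mlana and Pmel were all below 1 FPKM, Dct was listed at 0 in all 4 libraries, and Mbp had 5.66 to 8.44 FPKM. S100b had 1.57 FPKM in the luminal-labelled library with DMSO and at most 0.0979 FPKM in the others. The sum of the 10 markers ran from 7.12 to 9.31 FPKM, most of it Mbp. With DMSO, 8 of the 10 were higher under the luminal label, beside 9340 of all 17787 genes. Except for S100b, these 8 were below 1 FPKM under both labels. Mbp was lower under the luminal label with DMSO, at 5.66 against 6.61 FPKM, as was Sox10. The part of such cells' RNA in the Sox10 values was not tested.

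In the comparison of baicalin with DMSO under the basal label, 1 of the 7 genes rose, Procr, where 2.15% of all genes tested did, and 0 of 7 fell, where 3.33% did. Under the luminal label Procr rose, where 2.37% of all genes did, and Lgr5 and Tspan8 fell, where 1.59% did. The median log2 change of the 7 was -0.14 under the basal label, against 0.01 over all genes, and -0.42 under the luminal label, against -0.02. By counting error alone, 1 gene of the 7 had an interval above 1 under the basal label (28.1% of all genes) and 4 an interval below 1 (26.3%). Under the luminal label 2 lay above 1 (22.9%) and 5 below (28.7%). An interval that leaves out 1 is thus common at this depth. A fit of label and treatment to all 4 libraries (limma on log2 values with 1 FPKM added) had 1 residual degree of freedom. Its spread came from the difference in response between the labels, shared in part over genes of like level. The fit had no measure of how far cultures under the same treatment differ. It called 0 of the 17787 genes at an adjusted p under 0.05, with 1884 genes at an unadjusted p under 0.05. Its mean log2 change for Procr was 1.69, higher in both pairs, with an adjusted p of 0.384 in limma. The adjusted p of the other members ran from 0.435 to 0.97 in the same fit, so the change with baicalin passed the test for 0 of the 7.

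**Figure D3:**
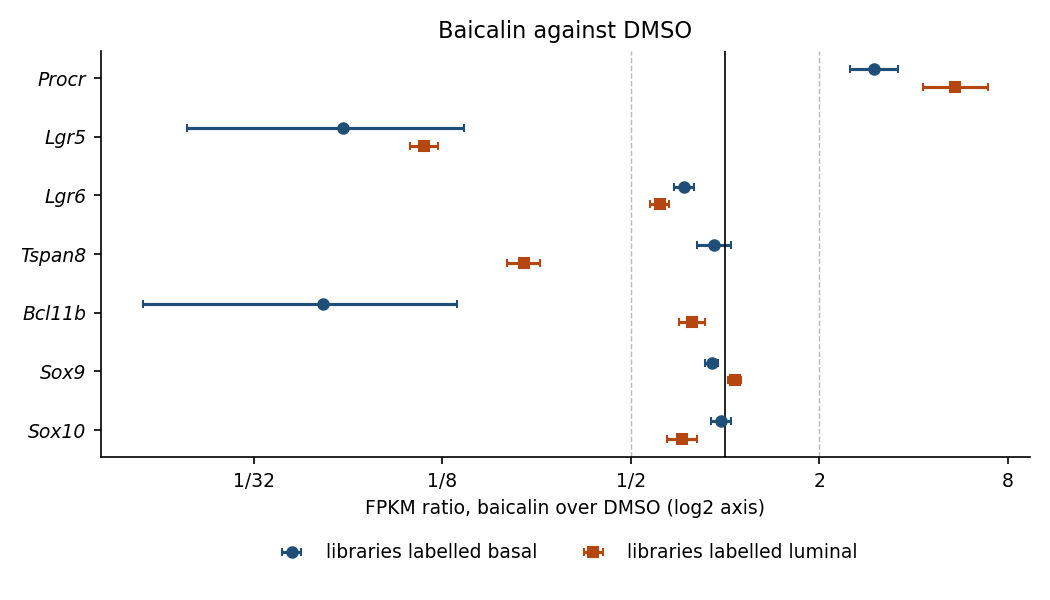
FPKM ratio of baicalin to DMSO on a log2 axis for each of the 7 genes, in the libraries labelled basal (circles) and luminal (squares), with exact 95% counting intervals, a solid line at 1 and dashed lines at a 2-fold change. Procr is to the right of 2 in both pairs, Lgr5 to the left of 1/2 in both, Tspan8 to the left in the luminal-labelled pair only and Bcl11b in the basal-labelled pair only.

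The 2 pairs were then set against each other by the ratio of their baicalin to DMSO ratios. For Tspan8 the luminal-labelled ratio was 4.05-fold lower than the basal-labelled one (3.39 to 4.83). For Procr it was 1.82-fold higher (1.35 to 2.45). Since the baicalin levels of Procr lay close together, this came with the lower DMSO level under the luminal label. For Lgr5 the ratio of ratios was 1.81 (0.738 to 5.76), so a difference in fold between the labels was not detectable at this depth. For Bcl11b it was 15.0 (5.58 to 56.7), and it rests on the 4 fragments in 1 library. For Lgr6, Sox9 and Sox10 it was 0.837, 1.18 and 0.753.

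Between the labels, 3 of the 7, Lgr5, Bcl11b and Tspan8, passed the threshold upwards in the luminal-labelled library with DMSO, where 4.71% of all genes did, and 0 passed it downwards, where 3.86% did. Counting intervals lay above 1 for 4 of the 7 (30.5% of all genes) and below 1 for 3 (30.2%). Lgr5 was 44.5-fold higher there (35.7 to 56.2), Bcl11b 13.0-fold (10.3 to 16.7) and Tspan8 2.81-fold (2.54 to 3.12). Of all genes, 23 had a larger log2 difference than Lgr5, which was 3.74. With baicalin, Lgr5 and Bcl11b were again higher under the luminal label, where 5.24% of all genes were, and Sox10 was lower, where 2.99% were, with 3 intervals above 1 (25.8% of all genes) and 2 below (33.7%). The plain ratios were 80.6 for Lgr5 (34.2 to 249) and 196 for Bcl11b (76.1 to 720). Tspan8 had 9.59 FPKM under the luminal and 13.8 FPKM under the basal label with baicalin, so that it was 2.81-fold higher under the luminal label with DMSO and 1.44-fold lower (1.25 to 1.66) with baicalin.

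**Figure D4:**
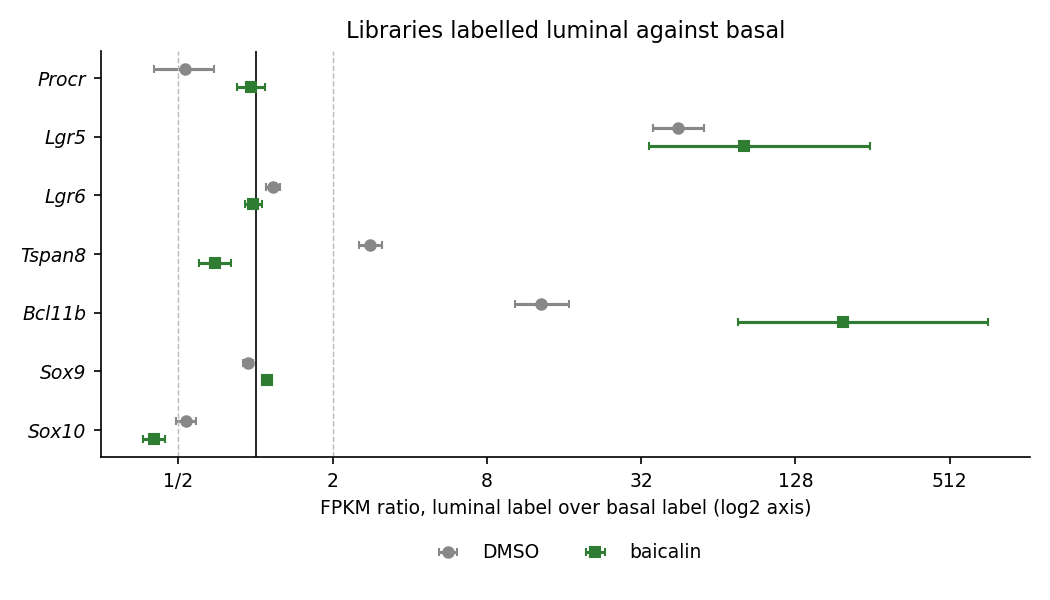
FPKM ratio of the luminal-labelled to the basal-labelled library on a log2 axis, with DMSO (circles) and with baicalin (squares), with exact 95% counting intervals, a solid line at 1 and dashed lines at a 2-fold difference. Lgr5 and Bcl11b lie far to the right under both treatments, Tspan8 crosses from the right to the left of 1, and Sox10 lies to the left.

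Lists of related genes, without the 7, were read in the same way. With baicalin, 2.15% of all genes tested rose and 3.33% fell under the basal label, and 2.37% and 1.59% under the luminal label. In lists this short, counts of 0 or 1 are near these shares. Among 11 measured genes of the protein C pathway and its protease-activated receptors, 0 rose with baicalin in either pair, and 1 fell, Serpine2, a protease inhibitor that went from 15.6 to 6.45 FPKM under the basal label. Proc, the ligand of the receptor, had at most 9 fragments in any library. F2rl1, the receptor PAR2, had 101 and 52.0 FPKM under the basal label and 18.1 and 18.8 FPKM under the luminal label. F2r, the receptor PAR1 through which activated protein C signals, had 14.1 and 9.49, and 2.62 and 2.31 FPKM in the same order. Among 21 measured genes of the LGR receptors, R-spondins and their Wnt partners, 0 rose in either pair and 1 fell, the Wnt receptor gene Fzd9, from 1.42 to 0.106 FPKM under the luminal label. By sign alone 17 of the 21 were lower with baicalin under the basal label and 14 under the luminal label, with medians of -0.22 and -0.27 on the log2 scale. Of all 17787 genes, 8728 and 9670 were lower in these pairs.

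Among 22 measured tetraspanins, Tspan1 and Tspan12 fell in both pairs, where 3.33% (basal label) and 1.59% (luminal label) of all genes did. Tspan1 went from 3.05 to 0.254 FPKM under the basal label and from 2.28 to 0.624 FPKM under the luminal label. Tspan12, a partner of the Wnt receptor FZD4 in norrin signaling, went from 9.66 to 4.17 and from 9.83 to 3.60 FPKM. Tspan7 rose under the basal label, from 5.43 to 12.8 FPKM, where 2.15% of all genes rose. Among 12 measured SOX factors other than Sox9 and Sox10, 0 changed past the threshold under the basal label. Under the luminal label Sox15 rose from 0.960 to 4.67 FPKM and Sox8 fell, where 2.37% and 1.59% of all genes did. The medians of the tetraspanin and SOX lists lay between -0.18 and -0.05 in both pairs.

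Of 19 other transcription factors reported in mammary stem and progenitor cells, 3 fell with baicalin under the basal label and 1 rose, where 3.33% and 2.15% of all genes did. Trp63 fell, as did Snai2, the Slug repressor of basal cells, from 4.26 to 0.415 FPKM, and Elf5, a factor of alveolar cells, from 14.9 to 5.63 FPKM. Id4, an inhibitor of bHLH factors in basal cells, rose from 3.23 to 9.45 FPKM. Among the 19 under the luminal label, Foxa1, a partner of the oestrogen receptor, fell from 9.30 to 1.09 FPKM, and 0 rose. Of 24 surface and signaling genes, 4 fell under the basal label and 0 rose, beside the same 3.33% and 2.15%. Prom1, which encodes CD133, fell from 12.7 to 3.72 FPKM, Cd200 from 14.8 to 5.14 FPKM and Ly6a, which encodes Sca1, from 50.6 to 23.2 FPKM. Kit, a receptor of luminal progenitors, was the fourth. Of the 24, under the luminal label, 4 rose and Kit fell, where 2.37% and 1.59% of all genes did. Aldh1a3, a retinaldehyde dehydrogenase of luminal progenitors, rose from 46.4 to 163 FPKM, Ly6a from 28.0 to 78.1 FPKM and the Notch ligand gene Jag1 from 74.1 to 175 FPKM, and Itga2 was the fourth. Ly6a thus moved in opposite directions in the 2 pairs, a difference that was not tested.

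**Figure D5:**
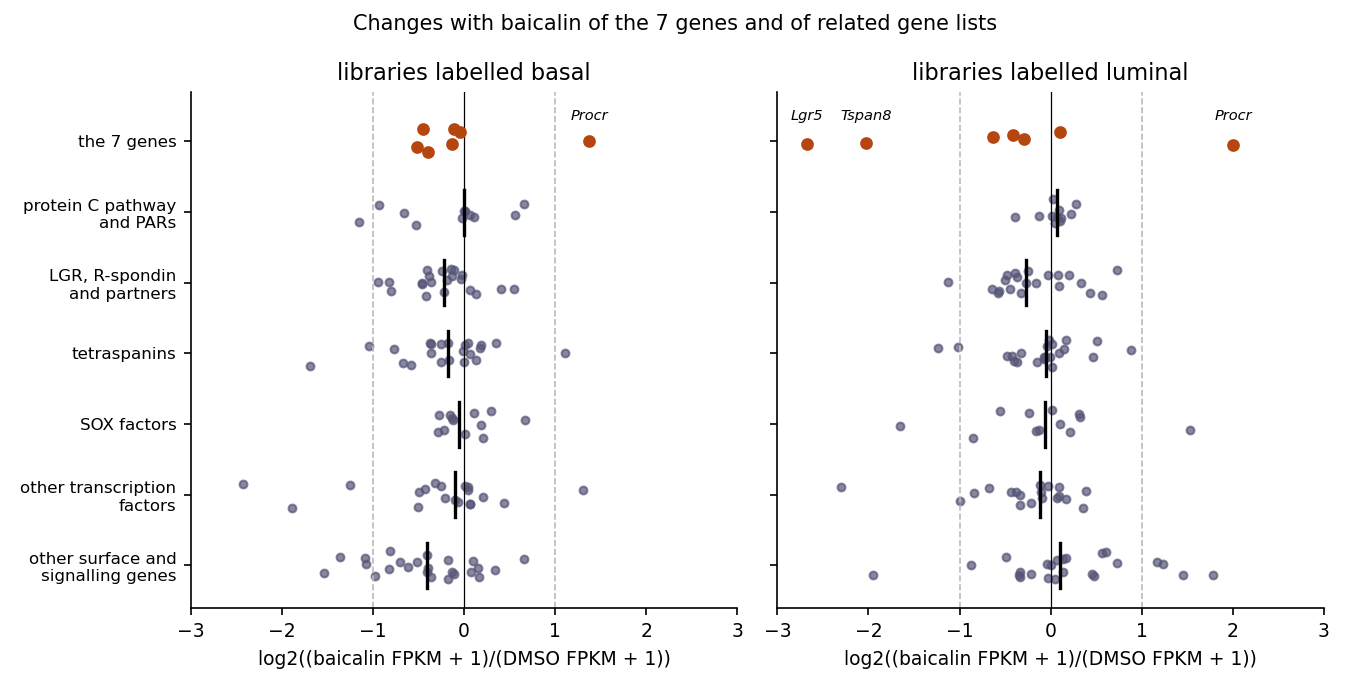
Log2 change with baicalin, with 1 FPKM added to each value, of the 7 genes (top row, the called ones named) and of the other genes of 6 related lists (1 point for each gene, black bars for list medians), in the libraries labelled basal (left) and luminal (right). Dashed lines mark a change of 1. Procr lies past the right line in both panels, and the medians of the 6 lists stay between -0.40 and 0.10.

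Genes were also sought whose pattern over the 4 libraries was most like that of a member, as the distance between log2(FPKM + 1) values centred on each gene's mean, among 10871 genes with at least 1 FPKM in every library. The 3 nearest to Procr were Osgin1, an oxidative stress-induced growth inhibitor, at a distance of 0.241, Mthfd2, a mitochondrial folate enzyme, at 0.273, and Pdk4, a kinase of pyruvate dehydrogenase, at 0.307. Osgin1 had 3.96, 10.5, 2.43 and 12.1 FPKM in the order basal label with DMSO and baicalin, then luminal label with DMSO and baicalin. Within a distance of 0.5 there were 13 genes for Procr and 7 for Tspan8, against 217 for Sox10, 2623 for Lgr6 and 6066 for Sox9, whose flatter patterns are shared by many genes. The 3 nearest to Tspan8 were Gpx3, Shisa2 and Foxa1, at 0.389, 0.432 and 0.440. For Sox10 they were Gm45884, Nadsyn1 and Cdon, for Lgr6 Cox20, Fmr1 and Rfx3, and for Sox9 Tap1, Actg1 and Knop1. Lgr5 and Bcl11b were below 1 FPKM in at least 1 library and were left out of this search.

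Overlaps with other genes were few. For none of the 7 did another gene match its transcripts at 95% identity or more over at least 200 bases. Annotated genes overlapped the spans of Lgr5 and Tspan8 only. A930009A15Rik, on the opposite strand within Lgr5, had at most 0.0484 FPKM, and 4930422I22Rik, opposite Tspan8, was listed at 0 in all 4 libraries. The neighbours of Procr gave few or no fragments. Mmp24, the next protein-coding gene on its right, had at most 20 fragments in any library, and Gm17581, on its left, was listed at 0. Polr2f, 3.13 kb from Sox10, had 12.9 and 11.7 FPKM under the basal label and 14.9 and 12.7 FPKM under the luminal label, with DMSO first. Kcnj2, a potassium channel gene 1705 kb from Sox9 and its nearest protein-coding neighbour on the left, had 3.62 FPKM with DMSO and 0.489 FPKM with baicalin under the luminal label, while Sox9 itself stayed near 40 FPKM.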

How the data were processed

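RNA of 4 cultures, 1 library per condition, was enriched with oligo (dT) beads and made into stranded libraries. Per the paper's methods, the authors aligned reads with HISAT2 to GRCm38 and deposited FPKM from featureCounts on the Ensembl release 94 annotation. The submitters' processing notes also name Bowtie 0.12.2 and the build mm8, and which applies to these values is not given in the sources used here. Whether counting used the strand is not given either.

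Exon lengths of 54409 genes and positions came from GENCODE mouse release 21 (GRCm38). FPKM multiplied by exon length fell on whole fragments (within 0.1) for 98.9% to 99.1% of genes with fewer than 20 fragments, which gave each library's depth and the fragments of the 7 genes. These were used for exact Poisson intervals of levels, exact Clopper-Pearson intervals of ratios and exact conditional intervals of ratios of ratios. Such intervals cover counting error only.

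Changes were log2 ratios with 1 FPKM added, on the 17787 genes above 0 in all 4 libraries, with a threshold of 1. With 1 library per condition, single comparisons had no test. An additive fit of label and treatment (limma 3.58.1) was added after seeing the data. Libraries given estrogen and progesterone are not analysed here. The members, gene lists and comparisons were chosen with earlier results of these data known. Named were the 7 genes, up to 3 called genes in each direction of each list, the 3 nearest genes by pattern, neighbouring genes and cell markers. Some of the markers are not reported here. Further list genes (F2r, F2rl1, Proc, Rspo1, Rspo2, Rspo3, Rspo4, Axin2, Lgr4, Kit and Itga2) were named after their values were seen. Lists were written from general knowledge, and all 130 entries were found by symbol. Alternatives were other pseudocounts, filters, scalings and thresholds. The computation was tested on simulated data. Python 3.11.15, numpy 2.4.6, pandas 2.3.3 and scipy 1.17.1 were used.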

Additional observations from a re-analysis of the deposited data

Results flagged for a closer look

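Sox9 had counting intervals on opposite sides of 1 in the 2 pairs, with a ratio of baicalin to DMSO below 1 under the basal label and above 1 under the luminal label. The luminal-labelled ratio was 1.18 times the basal-labelled one (1.11 to 1.27). With 1 library per condition this difference between cultures was not tested.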

How the results depend on the processing

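Of 72 counts of members past the threshold under other settings, 65 stayed within 1.5 times the count reported and 7 did not. In the basal-labelled pair, the members lower with baicalin numbered 2 in place of 0 with a pseudocount of 0.1 FPKM, with no pseudocount and with scaling to TPM, and these were Lgr5 and Bcl11b. The share of all genes that were lower moved as well, from 3.33% to 7.32%, 12.4% and 5.63%. TPM values here are larger than FPKM, so the same added 1 weighs less. With a threshold of 2, members higher with baicalin in the basal-labelled pair numbered 0, and between the labels with baicalin 1 member was higher and 0 were lower. With a threshold of a 1.5-fold change, 2 members were lower under the luminal label with DMSO. Of 194 single log2 changes under other settings, 26 lay outside the counting interval as expressed with 1 FPKM added, all under another pseudocount or TPM, and 1 changed sign, that of Lgr6 between the labels with baicalin (-0.03, and 0.0020 after centring). The difference in log2 change between the pairs depended on the pseudocount for Lgr5, which went from -2.22 to 0.86 without it, and for Bcl11b, which went from 0.22 to 3.91. No paired analysis by replicate number was possible because the labels number no replicates, and with 1 library per group none could be left out. The fit that takes the 2 labels as pairs, added after seeing the data, called 0 of 7 members.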

Other observations

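Between the labels, genes of the lists differed in more than the members. Of the 21 measured LGR, R-spondin and Wnt partner genes, 19 were higher in the luminal-labelled library with DMSO by sign, with a median log2 difference of 0.41 against 0.01 over all genes, and 4 passed 1, where 4.71% of all genes did. Fzd7, a Wnt receptor gene, had 37.8 FPKM under the basal and 95.5 FPKM under the luminal label, and the Wnt effector genes Tcf7 and Tcf7l2 had 9.92 and 22.9 FPKM and 3.85 and 9.22 FPKM. Of the 19 other transcription factors, 7 were higher by more than 1 under the luminal label with DMSO, and Elf5 was lower, where 4.71% and 3.86% of all genes passed. Id4 had 3.23 and 40.4 FPKM. The Notch ligand gene Dll1, which marks a subset of basal stem cells, had 6.01 FPKM under the basal and 45.4 FPKM under the luminal label with DMSO, and 4.30 and 31.9 FPKM with baicalin. Trp63, in the list of transcription factors, is also 1 of the 10 basal markers, all of which were higher in the luminal-labelled libraries.

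In the protein C list the receptors F2rl1 and F2r were lower under the luminal label with DMSO, at 18.1 against 101 FPKM and 2.62 against 14.1 FPKM. Pros1, which encodes protein S, the cofactor of activated protein C, was higher there, at 20.6 against 4.89 FPKM.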
